A study of Mus musculus with 6 samples.

Results

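Wnt ligands, their receptors, the R-spondins, the secreted antagonists and a small group of feedback and target genes were followed in ribosome-bound RNA of neonatal mouse kidney. The members were chosen by gene symbol: all Wnt, Fzd, Rspo, Sfrp and Dkk genes, with Frzb, Wif1, Lrp5, Lrp6, Axin2, Lef1, Nkd1, Rnf43 and Znrf3. The rule found 50 genes among the 48587 rows of the count table: 19 ligands, 12 receptors, 4 R-spondins, 10 antagonists and 5 feedback or target genes.

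Wnt proteins are secreted, lipid-modified ligands that bind Frizzled receptors (Fzd genes). With the co-receptors Lrp5 or Lrp6 they stabilise beta-catenin, which then acts with TCF and LEF factors on target genes, and some ligands also signal to cell polarity and movement without beta-catenin. R-spondins raise the number of receptors at the cell surface by blocking the ubiquitin ligases Rnf43 and Znrf3, whereas Sfrp proteins, Frzb and Wif1 bind the ligands and Dkk proteins act on the co-receptors. In the developing kidney, Wnt9b of the ureteric stalk and Wnt4 of the forming nephron drive the turn of mesenchyme into epithelium, Wnt11 is known from ureteric bud tips, Wnt7b from the collecting duct and Wnt2b from the stroma.

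The 6 libraries came from kidneys of neonatal mice, 3 libraries of littermate controls and 3 of Foxp1-deficient mice by the titles, with no statement that replicates are separate animals, so that the spread between them may be partly technical. Controls were Cdh16Cre;Foxp1fl/+;RiboTag, and Foxp1-deficient animals were Cdh16Cre;Foxp1fl/fl;RiboTag. All groups thus carried the Cre, the RiboTag allele, which puts an HA tag on ribosomes of cells with Cre activity, and at least 1 floxed Foxp1 allele. The promoter of Cdh16, which encodes a kidney-specific cadherin, drove Cre, and tagged ribosomes were recovered with anti-HA beads. The treatment tag read vehicle for controls and chronic acid load for Foxp1-deficient libraries, so genotype and this label cannot be told apart.

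Library totals ran from 9710048 to 18958196 counts. Values per library are CPM (counts scaled to a common library size) with TMM factors of edgeR (0.8098 to 1.156), and a count of 0 leaves room for up to 3 counts, or 0.137 to 0.382 CPM. Foxp1, the targeted forkhead gene, had 48.8, 30.8 and 35.9 CPM in controls 1, 2 and 3 against 34.6, 11.3 and 29.3 in Foxp1-deficient libraries 1, 2 and 3. The ranges overlapped (log2 fold change -0.62, SE 0.49, unadjusted p = 0.246, edgeR quasi-likelihood test). In all 3 pairs of equal number the control held more Foxp1, and the blocked log2 fold change was -0.72 (SE 0.28, edgeR quasi-likelihood test, unadjusted p = 0.0496, adjusted p = 0.853). The count covers all exons of the gene, so it need not measure the deletion itself. The label of kidney tubular cells was checked against markers: Cdh16, Pax8, Epcam and Cdh1 together had 0.93 to 60.5 CPM in controls and 2.26 to 61.1 in Foxp1-deficient libraries. The 5 proximal tubule markers had 36.8 to 287 and 61.6 to 404 CPM. The 7 stromal markers together had 4169 to 9630.3 and 2568 to 9208 CPM, most of it Col1a1, and without Col1a1 the other 6 had 380.3 to 703 and 411 to 1062 CPM. Tubule markers sat mostly in the libraries numbered 3: the pan-tubule sum was 60.5 and 61.1 CPM there and at most 12.7 in the other 4. In those 4 libraries the low pan-tubule markers, Cdh16 among them, go against the label. In the libraries numbered 3 the 6 stromal markers other than Col1a1 still summed to 703 and 1062 CPM. That was above the pan-tubule sum and the proximal tubule sum there (287 and 404 CPM). The label of tubular cells alone is thus not borne out in any library, although sums over different genes do not give shares of cells. In ribosome-bound RNA pooled over cells, fewer cells of a type, less RNA per cell and unequal recovery on the beads cannot be told apart. Control 2 and Foxp1-deficient 2 had the fewest genes detected, 13885 and 14285, against 18241 to 22190 in the other 4. They also had the smallest totals, 11264609 and 9710048 counts, and the lowest TMM factors, 0.847 and 0.8098.

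Upstream sequences are shown first for 4 of the genes described below, Wnt11, Wnt9a, Wnt5b and Rspo1. Each is the 250 bases before a RefSeq transcript start (GRCm38.p6, the assembly of mm10), 5′ to 3′ on the gene's strand. The windows are chr7:98834862-98835111 (plus strand) for Wnt11 (1 of 2 listed starts), chr6:119449387-119449636 (minus strand, 1 of 3 listed starts) for Wnt5b, chr11:59306680-59306929 (plus strand) for Wnt9a and chr4:124986180-124986429 (plus strand) for Rspo1. Capitals mark CTTTGAT or its reverse complement ATCAAAG, a core sequence known for TCF and LEF factors.
Wnt11: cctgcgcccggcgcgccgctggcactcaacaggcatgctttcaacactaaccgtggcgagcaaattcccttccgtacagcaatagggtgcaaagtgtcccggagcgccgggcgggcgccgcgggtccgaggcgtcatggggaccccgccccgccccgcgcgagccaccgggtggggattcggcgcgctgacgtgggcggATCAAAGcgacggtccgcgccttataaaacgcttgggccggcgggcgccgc
Wnt5b: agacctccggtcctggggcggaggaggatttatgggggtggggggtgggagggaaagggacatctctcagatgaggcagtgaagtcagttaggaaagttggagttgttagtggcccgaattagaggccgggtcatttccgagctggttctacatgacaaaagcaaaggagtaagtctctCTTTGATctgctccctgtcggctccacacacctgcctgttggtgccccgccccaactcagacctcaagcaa
Wnt9a: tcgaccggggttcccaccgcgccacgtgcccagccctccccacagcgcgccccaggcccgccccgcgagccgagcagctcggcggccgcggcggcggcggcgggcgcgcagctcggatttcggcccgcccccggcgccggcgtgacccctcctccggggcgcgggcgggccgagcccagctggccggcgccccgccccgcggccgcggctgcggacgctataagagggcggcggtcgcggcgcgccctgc
Rspo1: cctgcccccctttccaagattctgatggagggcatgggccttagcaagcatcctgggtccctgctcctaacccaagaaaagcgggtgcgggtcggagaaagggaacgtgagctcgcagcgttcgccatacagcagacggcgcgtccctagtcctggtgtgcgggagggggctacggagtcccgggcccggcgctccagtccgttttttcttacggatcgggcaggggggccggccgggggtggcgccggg

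The match in Wnt11 began 51 bases and that in Wnt5b 71 bases before the start. Of the 2 Wnt11 and 3 Wnt5b windows listed, the one shown is in each case the only one with a match, and it was chosen for that. Wnt5b passed no test between genotypes at an adjusted p under 0.05 in any setting. Wnt2b, whose blocked p was lower, is not shown, and its window had no match. The sequences shown therefore give no share of matches among members that differed between genotypes. RefSeq windows matched 33 of the 50 members, with 40 starts. On both strands, CTTTGAT was present in 2 of these 40 windows, those of Wnt11 and Wnt5b, and in 3.21% of 32851 mouse windows of the same length. CTTTGAA was present in 1 of the 40, that of Dkk1, and in 4.46% of all. TGTTTAC, a core sequence of forkhead factors, was in 0 of the 40 and in 3.17% of all. The Wnt9a window was 84.4% G or C with 48 CpG dinucleotides, that of Wnt11 70.8% with 37, that of Rspo1 66.8% with 22, and that of Wnt5b 55.6% with 7, whereas the median of all windows was 52.4% with 6. These matches describe letters in these windows and show no binding.

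A small number of members made up most of the pathway's transcripts. Levels between genes were compared per exon length, as RPKM (CPM per kilobase of exon). Fzd2 had the highest mean over the 6 libraries, 48.8 RPKM (range 34.5 to 60.7), followed by Wnt11 with 23.1 (12.1 to 35.2), Rspo1 with 20.5 (8.95 to 32.3), Wnt9a with 19 (10.1 to 34.2) and Sfrp1 with 18.6 (8.54 to 26.2). The range of Fzd2 met that of Wnt11 only at their ends, and each neighbour below overlapped the next. Of the 50 members, 26 had counts in every library, and Wnt3a and Wnt8b had none in any. The low-count filter kept 32 members for testing: 9 ligands, 11 receptors, 3 R-spondins, 5 antagonists and 4 feedback genes. Of these, Lef1 and Wnt10b had reached the filter's CPM limit in libraries of 1 group only, so that a difference was built into their passing. The other 18 were not tested.

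**Figure D1:**
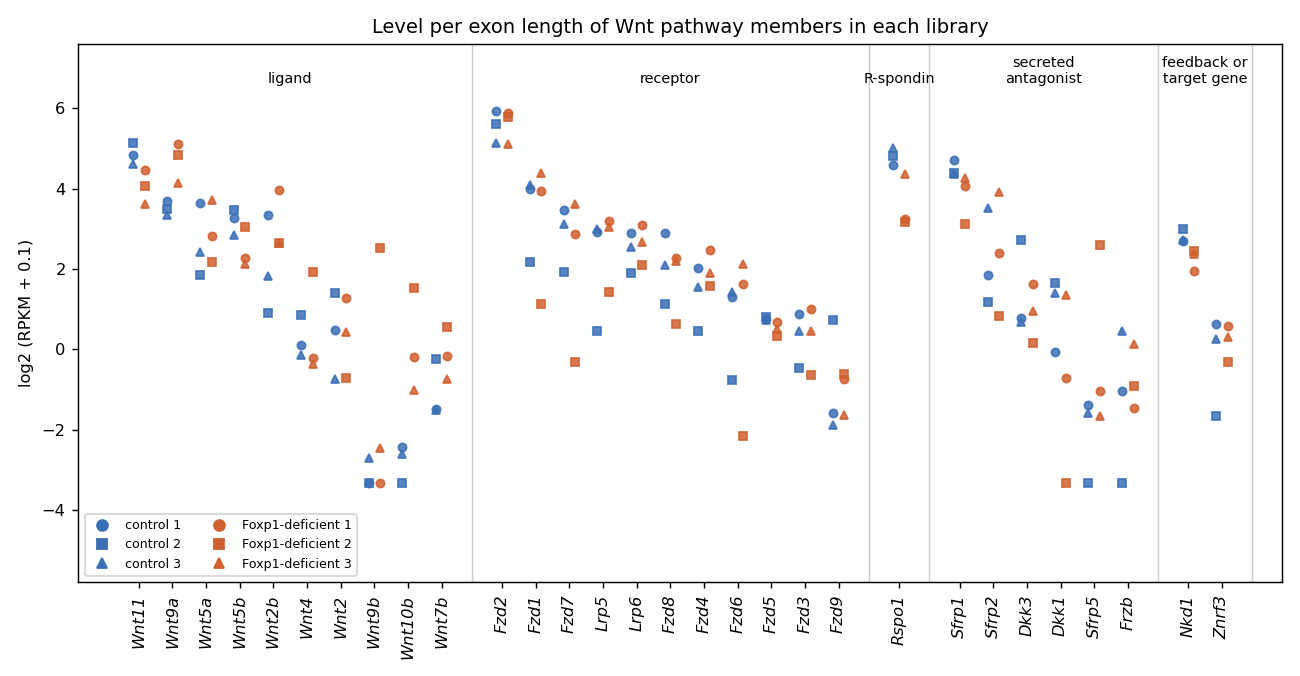
Level per exon length of the members averaging at least 0.5 RPKM, as log2 of RPKM plus 0.1 (vertical axis), by role and in order of their mean. Each point is a library (blue control, orange Foxp1-deficient, shapes for the library numbers). Fzd2, Wnt11, Rspo1, Wnt9a and Sfrp1 stood highest, and Foxp1-deficient 2 held most of the Wnt9b and Sfrp5 counts.

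No member passed the test between genotypes in edgeR's quasi-likelihood fit, with or without the library number as a block (0 of 32 members and 0% of 14311 genes at an adjusted p under 0.05 in both fits). With DESeq2 and the block, 3 members passed: Wnt9a rose and Wnt11 and Rspo1 fell in Foxp1-deficient libraries. That was 3 of the 25 members with an adjusted p there, against 1.43% of 11814 genes, 1 higher (0.956% of all) and 2 lower (0.474% of all). Without the block DESeq2 called 0 members (0.0426% of all genes). Limma-voom with the block also called 0 (0.0559% of all genes), as did edgeR with the block when the libraries numbered 2 were left out (0.196% of all genes). The 3 calls thus rest on 1 tool and 1 design. Without the libraries numbered 2, which stood apart in genes detected, the log2 fold changes of Wnt9a, Wnt11 and Rspo1 in edgeR were 1.19, -0.63 and -0.91, beside 1.24, -0.80 and -1.12 with all libraries. At an unadjusted p under 0.05, edgeR without a block had 3 members of 32 (0.720% of all genes), 2 higher (0.545%) and 1 lower (0.175%). With the block it had 8 (5.32% of all genes), 3 higher (3.07%) and 5 lower (2.26%). Those 8 were Wnt9a, Wnt2b and Wnt10b on the higher side and Wnt11, Wnt5b, Rspo1, Sfrp1 and Nkd1 on the lower side. Without Wnt10b and Lef1, the counts were 2 and 7 of 30 members, beside 0.672% and 5.30% of the 14278 genes that reached the filter's limit in both groups.

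The 2 groups did not overlap for 8 of the 32 members (4.75% of all genes). In all 3 pairs of equal number, 7 members were higher (18.0% of all genes) and 8 lower (16.0%). Wnt9a and Wnt10b were higher in all Foxp1-deficient libraries (2 of 32, against 2.64% of all genes), and Wnt11, Rspo1, Sfrp1, Nkd1, Fzd5 and Lef1 were lower (6 of 32, against 2.11%). Wnt10b and Lef1 are in these counts although their passing the filter had a difference built in. Among the 30 members that reached its limit in both groups, 1 stood higher and 5 lower, beside 2.50% and 2.04% of the 14278 such genes. Scaled to library totals instead, 2 members stood higher (2.10% of all genes) and 4 lower (2.07%): Rspo1, Sfrp1 and Fzd5 then overlapped and Wnt5b no longer did. Over all tested members 18 had a higher and 14 a lower fitted value (53.6% and 46.4% of all genes), or 15 and 17 with the block (49.5% and 50.5%). The median log2 fold change was 0.04, or -0.01 with the block, beside 0.03 and -0.01 over all genes.

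**Figure D2:**
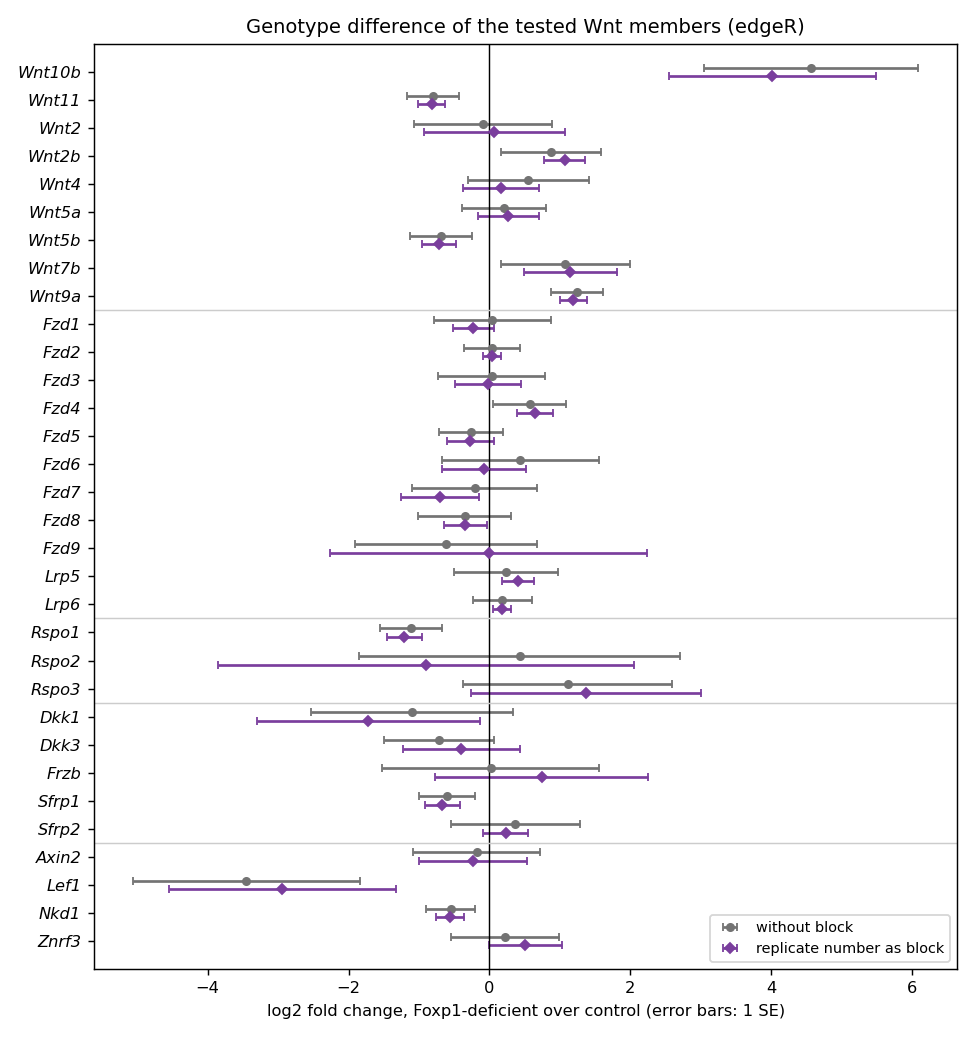
Log2 fold change of the 32 tested members (horizontal axis, Foxp1-deficient over control) from edgeR without a block (grey circles) and with the library number as a block (purple diamonds), with bars of 1 SE. Grey lines part ligands, receptors, R-spondins, antagonists and feedback genes. Wnt9a lies at 1.24 and 1.19, Rspo1 at -1.12 and -1.21 and Wnt11 at -0.80 and -0.82.

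Wnt9a (chromosome 11, 59306928 to 59333552, plus strand, mm10), a ligand known from joint formation, was the member with the lowest p in both edgeR fits. It had 42.3, 36.9 and 33.7 CPM in controls 1, 2 and 3 against 114, 94.2 and 58.6 in Foxp1-deficient libraries. All Foxp1-deficient libraries were above all controls, and the controls were close to each other. The means were 37.6 ± 4.33 and 88.9 ± 28.0 CPM (SD, n = 3 each), 2.36-fold higher in Foxp1-deficient libraries. The log2 fold change was 1.24 (SE 0.37, unadjusted p = 0.0117, edgeR quasi-likelihood test), or 1.19 with the block (SE 0.19, adjusted p = 0.410, edgeR with Benjamini-Hochberg adjustment). DESeq2 with the block gave an adjusted p of 4.37e-04 and limma-voom with the block 0.114. Wnt3a, its neighbour on the opposite strand at a distance of 16175 bases, had no count in any library.

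Wnt11 (chromosome 7, 98835112 to 98855195, plus strand) is a ligand best known for signalling without beta-catenin. It had 118, 146 and 100.4 CPM in controls against 90.5, 68.5 and 50.2 in Foxp1-deficient libraries. Every Foxp1-deficient library lay below every control, with the smallest difference in pair 1. The fitted log2 fold change was -0.80 (SE 0.37, unadjusted p = 0.0655, edgeR quasi-likelihood test), or -0.82 with the block (SE 0.19, adjusted p = 0.764 by edgeR, 0.0371 by DESeq2 and 0.322 by limma-voom). Its exons shared 364 bases with Gm8398 on the opposite strand, a gene with 0 counts over all libraries. Counted without a strand option, that 0 does not show which gene the fragments in the shared bases came from.

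The ratio of Wnt9a to Wnt11 does not depend on how libraries are scaled. Per exon length it was 0.443, 0.314 and 0.417 in controls and 1.56, 1.71 and 1.45 in Foxp1-deficient libraries. Wnt11 was the more abundant of the pair in all controls and Wnt9a in all Foxp1-deficient libraries. The ratio was chosen after its values were seen and was not tested, and it does not say which of the 2 genes moved. As a share of the summed RPKM of all 19 ligands, Wnt11 took 37.4%, 50.8% and 46.3% in controls and 24.8%, 21.3% and 21.5% in Foxp1-deficient libraries. Wnt9a took 16.6%, 16.0% and 19.3%, then 38.7%, 36.5% and 31.1%. The summed ligand level itself overlapped, at 52.4 to 76.6 RPKM in controls and 56.6 to 88.4 in Foxp1-deficient libraries.

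**Figure D3:**
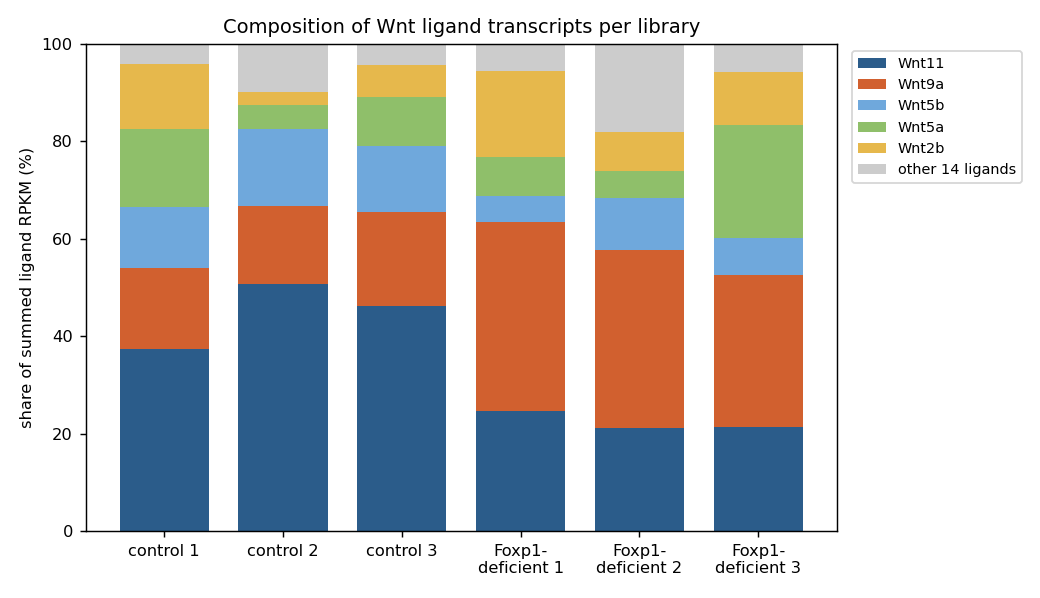
Share of each library's summed ligand RPKM (vertical axis, percent) taken by Wnt11, Wnt9a, Wnt5b, Wnt5a and Wnt2b, with the other ligands in grey. The 5 named ligands took 82.0% to 95.9% in each library. Wnt11 took 37.4% to 50.8% in controls and 21.3% to 24.8% in Foxp1-deficient libraries.

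Wnt5b (chromosome 6, 119432531 to 119544347, minus strand), a ligand of the Wnt5 group that signals mainly without beta-catenin, had 25.4, 28.9 and 18.8 CPM in controls. Its Foxp1-deficient libraries held 12.5, 21.7 and 11.3 CPM, lower in each pair of equal number, though Foxp1-deficient 2 stood above control 3. The log2 fold change was -0.69 (SE 0.44), or -0.72 with the block (SE 0.24, edgeR quasi-likelihood test, unadjusted p = 0.0306, adjusted p = 0.853). Its relative Wnt5a (chromosome 14, 28504750 to 28527447, plus strand) had 96.6, 27.3 and 41.4 CPM in controls against 54.7, 34.3 and 102 in Foxp1-deficient libraries. The Wnt5a libraries crossed over, with a log2 fold change of 0.21 (SE 0.60), which turned to -0.32 without Foxp1-deficient 3 and to -0.12 without control 2.

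Wnt2b (chromosome 3, 104945272 to 104961921, minus strand), a ligand of kidney stroma, had 42.5, 7.46 and 14.4 CPM in controls against 65.5, 26.0 and 26.0 in Foxp1-deficient libraries. It was higher in the Foxp1-deficient library of each pair, while control 1 stood above Foxp1-deficient 2 and 3. The log2 fold change was 0.87 (SE 0.71), or 1.07 with the block (SE 0.29, edgeR quasi-likelihood test, unadjusted p = 0.0137, adjusted p = 0.853). It was 0.26 without Foxp1-deficient 1 and 1.84 without control 1.

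Wnt10b (chromosome 15, 98771753 to 98778150, minus strand), a ligand that acts through beta-catenin, was scarce in all libraries. It had 3, 0 and 3 counts in controls and 32, 51 and 20 counts in Foxp1-deficient libraries, that is, 0.199, 0 and 0.146 CPM and 1.81, 6.50 and 0.916 CPM. All controls were at or under 3 counts. No p is given, since Wnt10b passed the filter through the Foxp1-deficient libraries alone, and the fitted fold depends on the prior count at such levels. Wnt1, which lies 11706 bases away on the opposite strand, had 17 counts in control 2 and none elsewhere. The other tested ligands were Wnt2, Wnt4 and Wnt7b. Wnt7b had 1.13, 3.26 and 1.12 CPM in controls against 3.45, 5.99 and 2.20 in Foxp1-deficient libraries, higher in each pair with overlapping groups.

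Wnt4 and Wnt9b, the ligands that drive nephron formation, were low or came mostly from 1 library. Wnt4 had 4.12, 7.14 and 3.35 CPM in controls against 3.17, 15.4 and 2.84 in Foxp1-deficient libraries, with the highest value in each group in the library numbered 2. Wnt9b had 200 counts in Foxp1-deficient 2, 5 in control 3, 8 in Foxp1-deficient 3 and none in the other 3 libraries. It was therefore a gene of 1 library and was not tested. Its neighbour Wnt3, at a distance of 24328 bases, had 4 counts in all. The same library held 88 of the counts of the antagonist Sfrp5, which had 0 to 13 counts in each of the other 5. Wnt6 and Wnt10a, 6193 bases apart on chromosome 1, had 40 and 29 counts over all libraries.

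**Figure D4:**
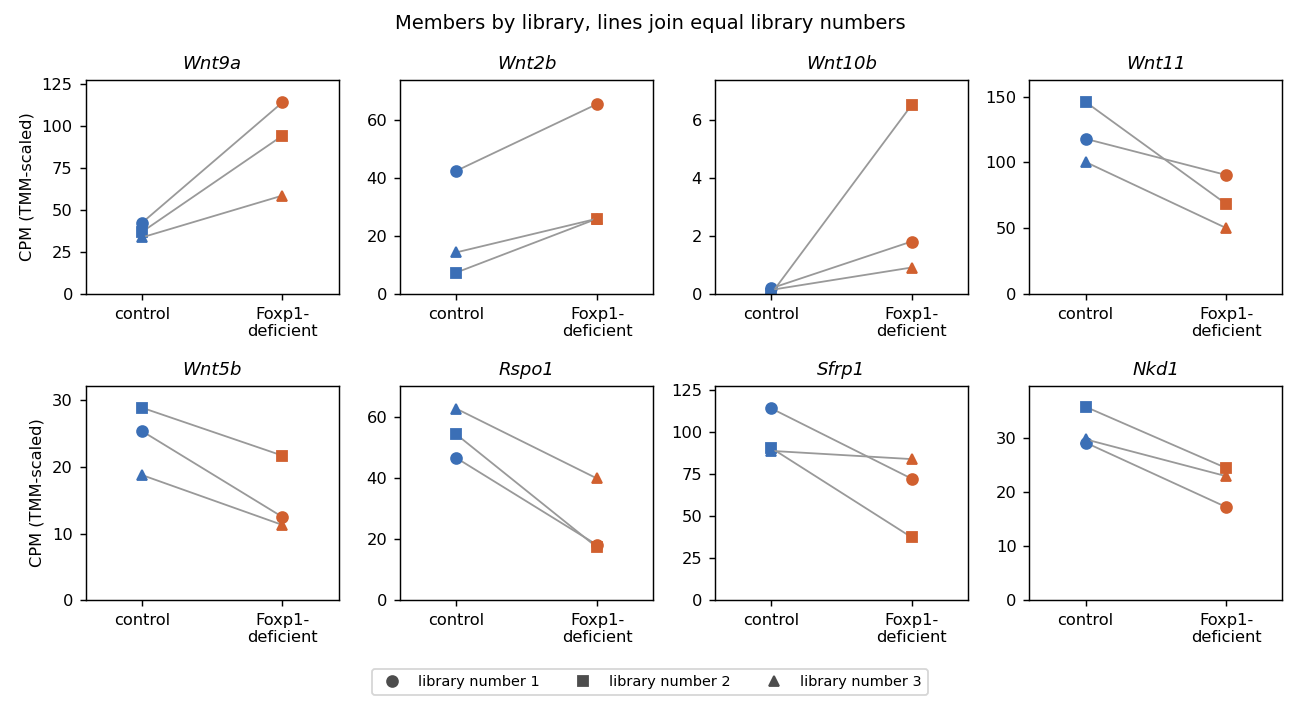
CPM scaled by TMM (vertical axes, from 0) of 8 members in each control (blue) and Foxp1-deficient (orange) library, with lines joining libraries of equal number. Wnt9a, Wnt2b and Wnt10b were higher in the Foxp1-deficient library of all 3 pairs, and Wnt11, Wnt5b, Rspo1, Sfrp1 and Nkd1 were lower. The 8 are those with an unadjusted p under 0.05 in the blocked edgeR quasi-likelihood test of these same libraries. Their agreement over pairs follows from that choice and is no separate evidence. Wnt10b passed the low-count filter through the Foxp1-deficient libraries alone.

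Among R-spondins, Rspo1 (chromosome 4, 124986430 to 125009099, plus strand) made up nearly all of the transcripts, 89.8% to 98.6% of the summed RPKM of the 4. It had 46.5, 54.2 and 62.6 CPM in controls against 18.1, 17.3 and 39.8 in Foxp1-deficient libraries. All Foxp1-deficient libraries were below all controls, and number 3 was the highest of each group. The means were 54.4 ± 8.05 and 25.1 ± 12.8 CPM (SD, n = 3 each), 2.17-fold higher in controls. The log2 fold change was -1.12 (SE 0.44, unadjusted p = 0.0372, edgeR quasi-likelihood test), or -1.21 with the block (SE 0.25, adjusted p = 0.659 by edgeR, 0.0141 by DESeq2 and 0.319 by limma-voom). Rspo2 and Rspo3 reached at most 4.81 and 2.42 CPM, and Rspo4 had 1 count in all. Of the R-spondin receptors, Lgr4 had 17.4, 2.94 and 12.0 CPM in controls against 15, 6.25 and 14.3 in Foxp1-deficient libraries. Lgr6 reached at most 3.39 CPM, and Lgr5 was too low to test.

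Markers of other cell types moved between the groups beside these members. The 4 mesothelial markers (Msln, Upk3b, Wt1 and Krt19) together had 1210.3 to 2206 CPM in controls and 1936 to 6114 in Foxp1-deficient libraries, with 3 fitted higher and Wt1 lower. The mesothelial sum was higher in the Foxp1-deficient library of each pair, at 1317 and 1936, 2206 and 6114, and 1210.3 and 2085 CPM in pairs 1, 2 and 3. The 3 smooth muscle markers (Acta2, Myh11 and Tagln) had 8690.4 to 19788 and 4731 to 9328 CPM, with all 3 fitted lower. The 3 endothelial markers had 7.25 to 41.8 and 4.58 to 17.3 CPM, and the 3 macrophage markers 199 to 691 and 40.3 to 282 CPM, all 6 fitted lower. The proximal tubule sum was also higher in each pair, at 36.8 and 61.6, 59.9 and 143, and 287 and 404 CPM. Of its 4 tested markers, 2 were fitted higher and 2 lower. In DESeq2 with the block, the fit that called the 3 Wnt members, Msln, Krt19 and Upk3b were also called higher, and Acta2, Myh11, Csf1r and Lyz2 lower. That fit also called the proximal tubule marker Lrp2 higher and the cardiac muscle marker Actc1 lower. Of the 3 cardiac markers, Tnnt2 was fitted lower as well but was not called, and Myh6 was fitted higher. Their sum was 565 to 1571 CPM in controls and 369 to 974 in Foxp1-deficient libraries. The stromal marker Dcn was called higher there, but of the 6 tested stromal markers 2 were fitted higher and 4 lower. Their median log2 fold change in edgeR was -0.27, or -0.32 with the block. None of these lists had a marker at 0 in every library, and their part in the differences of Wnt9a, Wnt11, Wnt5b and Rspo1 was not tested.

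For 10 of the 11 tested receptors the library number took a larger share of the variance of log2 CPM than genotype did, with Fzd5 the exception (15% and 60.9%). Fzd2 (chromosome 11, 102604396 to 102608058, plus strand), a receptor of broad use, had 222, 179 and 128 CPM in controls against 216, 202 and 126 in Foxp1-deficient libraries. Both groups followed the same order, and the log2 fold change was 0.04 (SE 0.40), or 0.04 with the block (SE 0.13). Lrp6, a co-receptor, had 100.1, 49.9 and 77.8 CPM and then 115, 57.5 and 85.1 CPM, with a blocked log2 fold change of 0.18 (SE 0.13). Its partner Lrp5 had 72.9, 12.5 and 77.2 CPM and then 87.7, 25.0 and 79.3 CPM, with 0.41 (SE 0.23) in the blocked fit. The share of variance in log2 CPM that went with library number was 97.5% for Fzd2, 95.3% for Lrp6 and 92.1% for Lrp5. For Wnt9a, Wnt11 and Rspo1 it was 15.8%, 23.6% and 23.0%, and the share that went with genotype was 79.8%, 66.9% and 69.0%. Wnt9a, Wnt11 and Rspo1 were singled out for their difference between genotypes in these same libraries. Their large genotype share follows from that choice and is no separate evidence of a genotype effect. The medians over the 32 tested members were 59.6% for number and 8.56% for genotype, beside 79.3% and 5.73% over all genes. Over all genes, too, the median share was thus larger for library number than for genotype. Genes with a larger share for number were not counted over all genes, so whether the receptors differ from other genes in this was not tested. Library number also has more levels than genotype, which favours it in such a split.

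Control 2 and Foxp1-deficient 2 held little of several Frizzled transcripts. Fzd1 had 18.5 and 8.67 CPM there and 63.9 to 87.6 CPM in the other 4 libraries, Fzd7 16.6 and 3.19 against 32.8 to 54.7, and Fzd6 2.00 and 0.51 against 9.77 to 17.5. Fzd3 and Fzd8 were also below the other 4, as were Lrp5 and Lrp6, whereas Fzd2, Fzd4 and Fzd5 were not. Of the 22 members averaging at least 5 CPM, 10 (45.5%) were lower in both libraries numbered 2 than in all others and 1 (4.55%), Wnt4, was higher. Among all 10707 genes at that level the shares were 36.5% and 27.8%. The fitted signs of Fzd1, Fzd2, Fzd7, Fzd8, Lrp5 and Lrp6 turned when single libraries were left out. Fzd4 was higher in the Foxp1-deficient library of each pair, with 26.6, 8.61 and 19 CPM in controls against 36.7, 19.5 and 24.3 in Foxp1-deficient libraries. Its blocked log2 fold change was 0.65 (SE 0.26, edgeR quasi-likelihood test, unadjusted p = 0.0538, adjusted p = 0.853). Without a block it was 0.57, which moved to 0.23 without control 2, 0.26 without Foxp1-deficient 1 and 0.96 without control 1. Fzd5 was slightly lower, with 10.7 to 11.2 CPM in controls and 8.03 to 10.3 in Foxp1-deficient libraries. Fzd9 and Fzd10 reached at most 3.57 and 0.226 CPM.

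**Figure D5:**
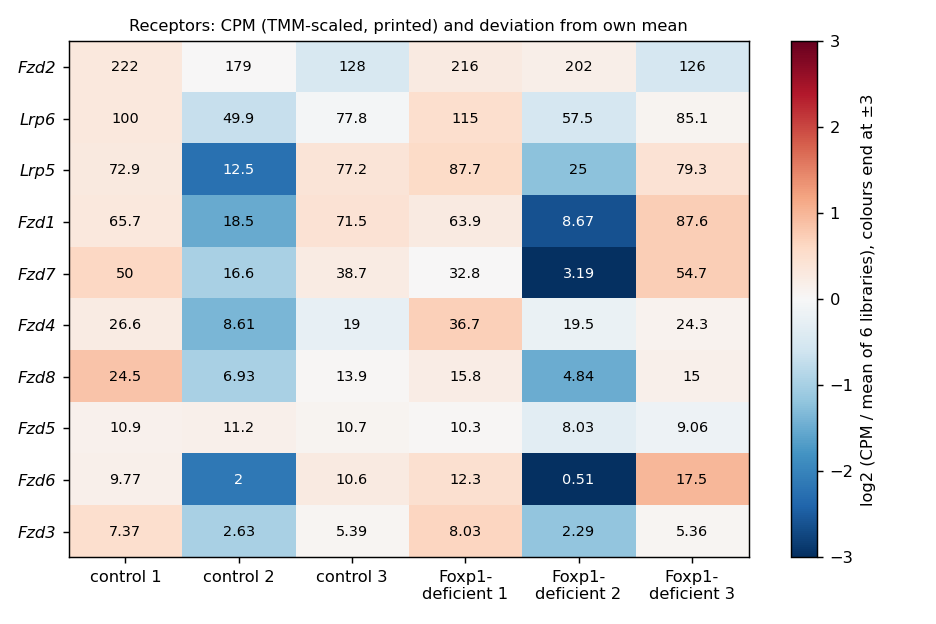
CPM scaled by TMM (printed in each cell) of the receptors averaging at least 5 CPM, one column a library, coloured by the log2 ratio to the gene's own mean over the 6 libraries. Control 2 and Foxp1-deficient 2 were low for Fzd1, Fzd7, Fzd6 and Lrp5, and Fzd2 stayed between 126 and 222 CPM.

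Secreted antagonists were led by Sfrp1 (chromosome 8, 23411502 to 23449632, plus strand), which took 47.8% to 79.0% of their summed RPKM. Sfrp1 had 114, 90.5 and 88.7 CPM in controls against 72.2, 37.4 and 83.8 in Foxp1-deficient libraries. The groups lay next to each other, with control 3 and Foxp1-deficient 3 nearly alike. The log2 fold change was -0.60 (SE 0.40), or -0.67 with the block (SE 0.25, edgeR quasi-likelihood test, unadjusted p = 0.0465, adjusted p = 0.853), and -0.32 without Foxp1-deficient 2. Sfrp2 had 7.51, 4.62 and 24.3 CPM in controls against 11.1, 3.57 and 32.3 in Foxp1-deficient libraries, highest in the libraries numbered 3 of both groups. Dkk3, a divergent member of its family, had 22.0 CPM in control 2 and 3.44 to 9.95 CPM elsewhere. Dkk1, an inhibitor of Lrp5 and Lrp6, had 2.06, 7.35 and 6.17 CPM in controls against 1.24, 0 and 5.91 in Foxp1-deficient libraries, where 0 allows up to 0.382 CPM. Dkk1 was lower in each pair with overlapping groups, and its unadjusted p was 0.467 (edgeR quasi-likelihood test). Frzb ranged from 0 to 4.13 CPM. Wif1, Sfrp4, Dkk2 and Dkk4 were too low to test.

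Nkd1, a feedback inhibitor that acts on Dishevelled, was the most abundant of the feedback and target genes (chromosome 8, 88521354 to 88594884, plus strand). It had 29.1, 35.7 and 29.7 CPM in controls against 17.2, 24.4 and 22.9 in Foxp1-deficient libraries. All Foxp1-deficient libraries were below all controls. The means were 31.5 ± 3.65 and 21.5 ± 3.76 CPM (SD, n = 3 each), and the log2 fold change was -0.55 (SE 0.35), or -0.56 with the block (SE 0.20, edgeR quasi-likelihood test, unadjusted p = 0.0365, adjusted p = 0.853). Axin2, a scaffold of the beta-catenin destruction complex and a common readout of the pathway, had 2.26, 1.79 and 2.28 CPM in controls against 1.24, 2.55 and 1.83 in Foxp1-deficient libraries. Its groups overlapped, at 17 to 47 counts a library. Lef1, a transcription factor of the pathway, had 11, 39 and 12 counts in controls and 2, 0 and 7 counts in Foxp1-deficient libraries, and it passed the filter through the controls alone. Znrf3 had 11.4, 1.68 and 8.70 CPM and then 11, 5.48 and 8.97 CPM. Rnf43, the related ligase, had at most 3 counts in any library.

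The other genes of the pathway showed no call in edgeR or in DESeq2 with the block, beside 0% and 1.43% of all genes. With shares this low, the lack of calls does not set these lists apart from other genes. All 20 genes of the intracellular beta-catenin route were tested, 11 fitted higher and 9 lower (median 0.11 in log2 fold change). Pygo1, a nuclear cofactor of beta-catenin, had 9.97, 6.30 and 7.39 CPM in controls against 3.28, 3.19 and 4.21 in Foxp1-deficient libraries. Its groups did not overlap, as was so for 4.75% of all genes. The blocked log2 fold change of Pygo1 was -1.13 (SE 0.48, edgeR quasi-likelihood test, unadjusted p = 0.0632, adjusted p = 0.853). Apc2 did not overlap either but stood higher, at 0 to 1.94 CPM in controls and 2.43 to 7.14 in Foxp1-deficient libraries. Apc, a scaffold of the destruction complex, and Dvl1, a Dishevelled gene, had blocked log2 fold changes of 0.34 (SE 0.15) each, with overlapping groups.

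Of 13 further target and feedback genes 10 were tested, with 5 fitted higher and 5 lower and a median of -0.08. Tnfrsf19 had 7.71, 10.7 and 3.45 CPM in controls against 3.45, 3.19 and 2.88 in Foxp1-deficient libraries. Its groups did not overlap, but control 3 and Foxp1-deficient 1 were nearly equal. Kremen1, a receptor for Dkk proteins, had 12.5, 3.26 and 17.5 CPM and then 21.4, 8.16 and 26.0 CPM, higher in each pair (blocked log2 fold change 0.87, SE 0.29; edgeR quasi-likelihood test, unadjusted p = 0.0306, adjusted p = 0.853). Myc, a growth regulator, had a blocked log2 fold change of 0.32 (SE 0.16) with overlapping groups. Of 17 planar polarity genes and other Wnt receptors 15 were tested, with 10 fitted higher and 5 lower, or 6 and 9 with the block. Ror2, a receptor for Wnt5a, had 25.4, 18.5 and 19.3 CPM and then 32.0, 50.9 and 19.1 CPM. Celsr1 and Daam2 had blocked log2 fold changes of 0.45 (SE 0.27) and -0.50 (SE 0.22). Wls, the carrier that brings Wnt proteins to the cell surface, had 222, 81.2 and 179 CPM in controls against 278, 74.5 and 182 in Foxp1-deficient libraries, again following the library number.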

How the data were processed

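Per the file headers, the authors ran featureCounts 1.5.1 on read pairs, summing exons by gene symbol (mm10, annotation release 86). The deposited table holds raw counts of 48587 named rows, without a strand option, so reads of overlapping genes on opposite strands are not distinguished. Gene length is the deposited exon length in bases, a unit of other kind. Per the submitters' processing notes, STAR, Trimmomatic, FastQC, SAMtools, deepTools and DESeq2 were also used, with no settings.

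All genes passing filterByExpr (14311) were tested with edgeR 4.0.16 (R 4.3.3), TMM factors and its quasi-likelihood F test (two-sided), adjusted by Benjamini-Hochberg over all genes at 0.05. The SE is the fold change divided by the root of the F statistic. Alternatives used DESeq2 1.42.0, limma-voom (limma 3.58.1), other scalings, no filter, a block, and libraries left out. Pair differences used log2 CPM with a prior count of 2. The labels do not state that equal numbers pair the libraries. Deviations from group means correlated at r = 0.57, 0.53 and 0.62 in pairs 1, 2 and 3. Libraries of unequal number were not compared in this way, so these values do not establish the pairing. Limits for counts of 0 cover counting error only, since reads lacking molecular identifiers can be copies of 1 molecule.

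Members given in every library average at least 10 CPM by library totals or have an unadjusted p under 0.05 in an edgeR fit (18 members). Other pathway genes named are up to 3 a list of lowest blocked p at 5 CPM or more, and further genes and the lower members were named after their values were seen. The members and lists were chosen with earlier results of these data known. The procedure was tested on simulated counts. Figures were drawn with matplotlib 3.10.9.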

Additional observations from a re-analysis of the deposited data

How the results depend on the processing

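Over 15 alternatives for 18 members, the direction of 10 was kept in all and that of 8 turned at least once. The 10 were Wnt9a, Wnt2b, Wnt10b, Wnt11, Wnt5b, Rspo1, Sfrp1, Nkd1, Fzd4 and Fzd5. For Wnt10b the direction was built in, since it passed the filter through the Foxp1-deficient libraries alone. The count of called genes was 0 in edgeR with all 6 libraries, without or with the block. It was 6 with DESeq2 without a block, 169 with DESeq2 and the replicate block, and 8 with limma-voom and the block. In edgeR with the libraries numbered 2 left out and a block it was 30. The count of called members was 0 in every setting run except DESeq2 with the replicate block, where it was 3 (Wnt9a 1.20, Wnt11 -0.82 and Rspo1 -1.21 on the log2 scale). With single libraries left out, both counts stayed at 0 to 0. The log2 fold changes ranged from -0.52 to 0.55 for Fzd1, -0.15 to 0.25 for Fzd2, -0.96 to 0.32 for Fzd7, -0.69 to 0.19 for Fzd8, -0.23 to 0.63 for Lrp5, -0.10 to 0.43 for Lrp6, -0.73 to 1.38 for Sfrp2 and -0.32 to 0.90 for Wnt5a. With the replicate block Fzd1 turned from 0.04 to -0.23 in edgeR and -0.25 in DESeq2. Fzd2 turned from 0.04 to -0.03 without the libraries numbered 2, or -0.02 with a block. The causes were not tested. In edgeR with all 6 libraries the block changed no call, and with the libraries numbered 2 left out it changed the count of called genes from 0 to 30. Without the low-count filter 48 members entered the fit and 0 were called.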
